A study of Mus musculus with 18 samples.

Results

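Livers of mice that ate green tea extract in a high-fat diet (GT) were compared with the livers of mice fed a normal diet (ND), to ask how far a liver on fat with the extract differs from one on normal food. Of 18 libraries in the series, 6 enter this comparison, 3 GT and 3 ND. The 3 liver libraries of the high-fat diet without extract (HFD) are set beside them. Of 23474 genes in the table, the 10670 with at least 1 FPKM (fragments per kilobase of transcript, scaled to library size) in at least 3 of the 9 liver libraries were tested.

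All mice were male C57BL/6J, housed singly, and 17 weeks old at sampling. From 5 weeks of age they received 1 of 3 diets for 12 weeks, with 10 mice to a diet. GT mice ate the high-fat diet to which an ethanol extract of green tea had been added at 0.25% by weight, HFD mice the high-fat diet alone, and ND mice a normal diet. No group ate the normal diet with the extract, so the GT and ND mice differ in both fat and extract. Whether a library is 1 mouse or a pool is not stated. The p-values therefore reflect how far these libraries scatter, and part of that scatter may be technical. PolyA RNA was sequenced, and the extraction text attached to the liver samples names adipose tissue only.

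The liver stores and exports fat, makes glucose between meals and breaks down amino acids. After feeding, insulin and the SREBP transcription factors raise the genes that make fatty acids and cholesterol, while in fasting the nuclear receptor PPAR-alpha raises the genes that burn fat. Many of these genes also follow the circadian clock, and secretory load on the endoplasmic reticulum (ER) raises its chaperones through XBP1 and ATF6.

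FPKM totals of the liver libraries ran from 680168 to 930139. The 8 hepatocyte markers summed to between 39580 and 47070 FPKM in GT libraries, 19780 and 51130 in HFD libraries and 39600 and 43250 in ND libraries, with albumin (Alb) listed at 0 in HFD 3. The mitochondrial gene mt-Co1 was listed at 0 in GT 3 and HFD 3, so a listed 0 can be a failed estimate. Skeletal muscle markers summed to 61.01 FPKM in GT 3, 155.0 in HFD 2 and 32.37 in HFD 3, against at most 3.437 in each other liver library. The fat-cell markers Adipoq, Lep and Plin1 were at or under 0.0529 FPKM in every GT and ND library. HFD 1 held them at 1.40, 0.723 and 0.399 FPKM.

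GT livers differed from ND livers in 277 of 10670 genes (2.6% of those tested) by limma at a Benjamini-Hochberg adjusted p under 0.05, here termed called. Of these, 135 were higher in GT (1.27%) and 142 lower (1.33%), and the 3 GT and 3 ND libraries of each called gene did not overlap. Over all genes tested, GT lay wholly above ND in 900 (8.43%) and wholly below in 1401 (13.1%), and the median log2 difference was -0.05. The absolute log2 difference of called genes ran from 0.55 to 6.00. Set against the same ND libraries, HFD livers had 1268 genes higher (11.9%) and 712 lower (6.67%). GT against HFD, which tests whether the GT and HFD livers differ from each other, gave 122 higher (1.14%) and 450 lower (4.22%). These 3 comparisons share libraries, so their values are set side by side only. Counts of list members called, given below, are to be read beside these shares over all genes tested. The split of the HFD calls depended on scaling: 64.0% of the HFD against ND calls were higher as deposited and 41.8% at equal FPKM totals, which moved the median of all genes from -0.02 to -0.20. For GT against HFD the higher share was 21.3% as deposited, 32.7% at equal totals and 35.5% after quantile scaling. For GT against HFD, equal totals moved the median of all genes from -0.04 to 0.08.

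**Figure D1:**
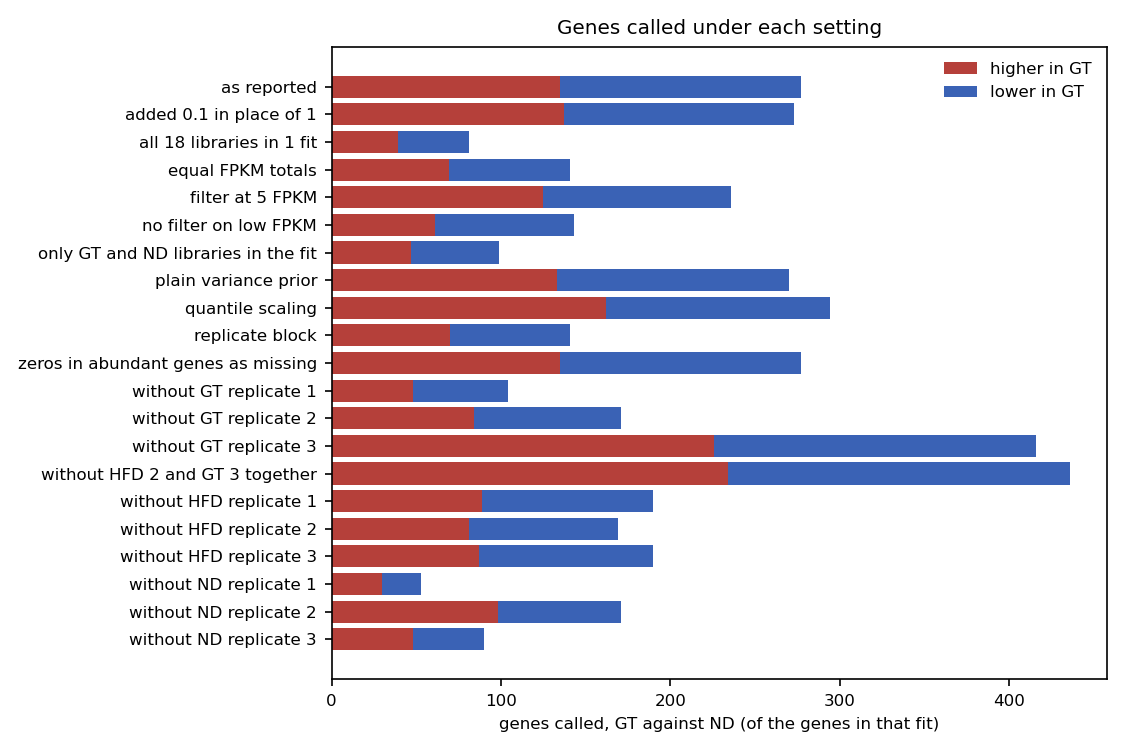
Number of genes called between GT and ND livers (x axis) in the reported fit and under each other setting (y axis), split into genes higher and lower in GT. The count was 277 as reported, 53 without ND 1 and 416 without GT 3.

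The number of GT against ND calls changed with the libraries in the fit. It was 53 without ND 1, 90 without ND 3, 104 without GT 1 and 169 without HFD 2. It was 171 without GT 2 and without ND 2, and 190 without HFD 1 and without HFD 3. Without GT 3, the GT library with muscle transcripts, it was 416. Fits on fewer libraries have fewer degrees of freedom, and the part of that in these counts was not tested. In every fit that left out 1 of the 9 libraries, 45 genes were called, 25 higher and 20 lower in GT. Of 106 called genes named by the rule used here, 32 were among these 45, and they are termed stable below. The term covers only the fits that left out 1 library. With all 18 libraries in 1 fit, the stable genes Nrep, Osgin1, Usp2, Spry4, Fabp5, Gadd45b, Insig1, Gsta2 and Mmp14 lost their calls. A called gene that is named below and not termed stable lost its call without at least 1 library.

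**Figure D2:**
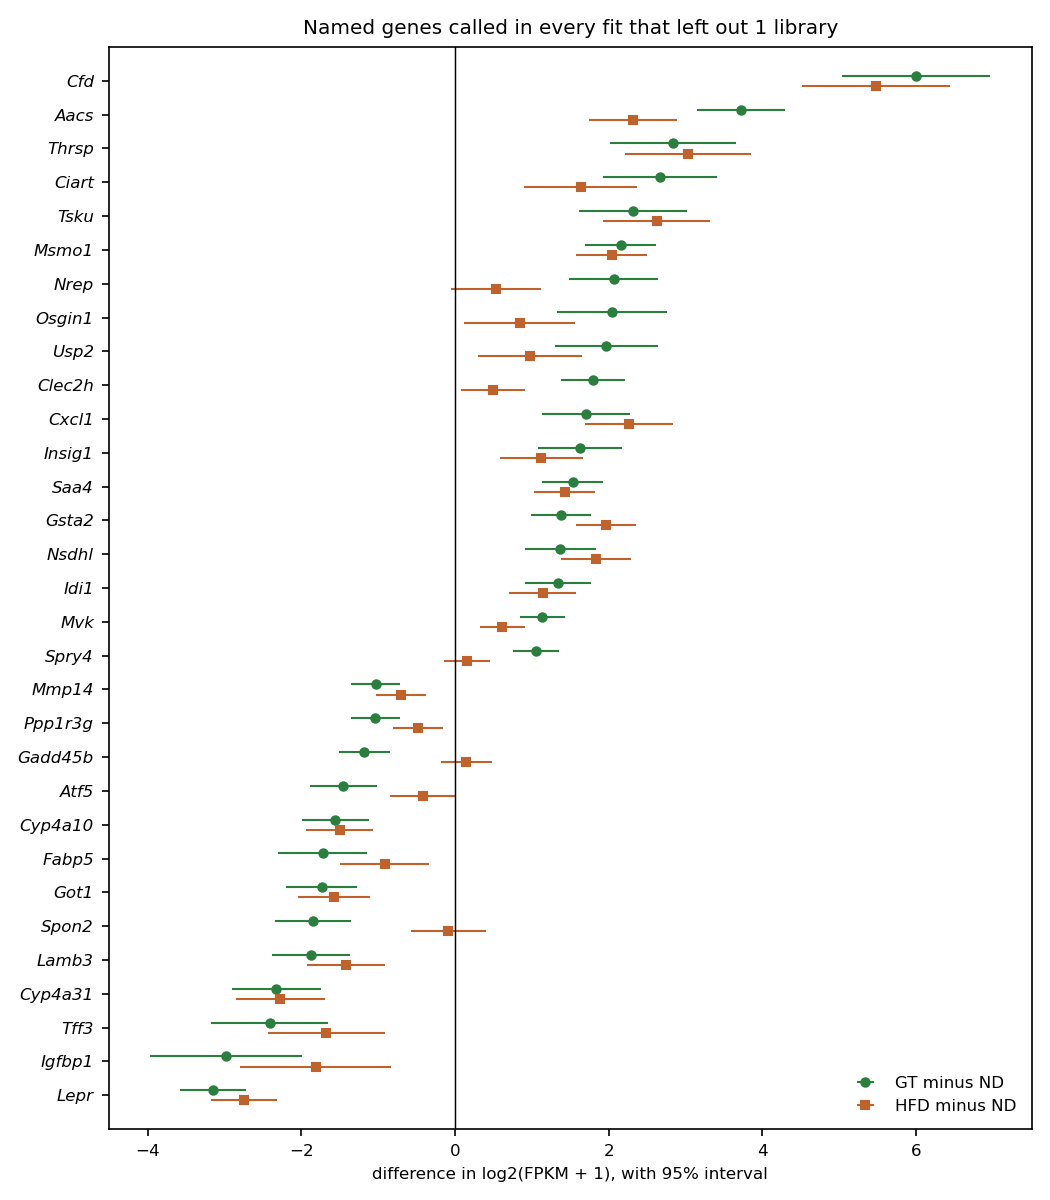
Difference from ND in log2(FPKM + 1), with its 95% interval, for GT (circles) and HFD (squares) in 31 named genes called between GT and ND in every fit that left out 1 library. GT values ran from 6.00 for Cfd to -3.15 for Lepr, and the HFD values of Spon2 and Spry4 lay near 0 at -0.09 and 0.15.

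Promoters are shown for 3 called genes, since the ER chaperone and clock genes among the calls belong to families with known promoter elements. The sequences are those of RefSeq on GRCm38.p6, 200 bases running up to the annotated start, with motif matches in capitals. In Creld2, chosen after its values were seen, and in Calr, the capitals mark the ER stress element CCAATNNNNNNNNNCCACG on the opposite strand. In Ciart they mark 3 copies of the E-box CACGTG.
Creld2 (chr15:88819446-88819645, plus strand): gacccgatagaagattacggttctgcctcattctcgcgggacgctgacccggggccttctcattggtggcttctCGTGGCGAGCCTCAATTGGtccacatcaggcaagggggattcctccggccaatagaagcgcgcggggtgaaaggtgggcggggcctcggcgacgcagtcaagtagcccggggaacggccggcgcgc
Calr (chr8:84846932-84847131, minus strand): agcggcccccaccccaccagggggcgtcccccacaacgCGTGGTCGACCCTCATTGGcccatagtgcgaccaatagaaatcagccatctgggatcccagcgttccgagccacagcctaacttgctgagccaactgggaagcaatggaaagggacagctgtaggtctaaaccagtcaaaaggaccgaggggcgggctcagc
Ciart (chr3:95882229-95882428, minus strand): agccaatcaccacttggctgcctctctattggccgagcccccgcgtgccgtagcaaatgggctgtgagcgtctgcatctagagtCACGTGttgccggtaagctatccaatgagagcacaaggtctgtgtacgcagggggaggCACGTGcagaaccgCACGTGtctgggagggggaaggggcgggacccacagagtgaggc
Both strands of each RefSeq promoter window were searched. The ER stress element was found in 9 of 26 listed ER stress genes with a promoter, and in 2 of the 8 called ones. Over all tested genes it was found in 15 of 8364 (0.179%), which include the 9. The list was compiled from general knowledge of liver, so these shares are not a test of the present data. The E-box was found in 5 of 17 clock genes, against 12.2% of tested genes, and Ciart was the only called one of these 5. No copy of the PPAR element, 2 AGGTCA runs 1 base apart, was found in the windows of 30 PPAR-alpha list genes, and 4 tested genes held one. TCACNCCAC, a sterol element, was found in 1 of 14 cholesterol genes, against 1.49% of tested genes.

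Genes of cholesterol synthesis were higher in GT than in ND livers where called. Of 19 tested, 10 rose and 0 fell, 17 had a positive difference (4536 of 10670 over all genes), with a list median of 0.95 on the log2 scale against -0.05 over all genes. Msmo1, a sterol methyl oxidase, stood at 82.5, 51.5 and 72.9 FPKM in GT libraries, against 12.1, 14.98 and 16.4 in ND libraries. The GT and ND libraries did not overlap, and the log2 difference was 2.16 ± 0.21 (SE here and below; adjusted p = 0.00114). Squalene epoxidase (Sqle), the first oxygen-dependent step, rose by 1.82 ± 0.30 (adjusted p = 0.0125). Mevalonate kinase (Mvk) had 8.76, 8.60 and 9.88 FPKM in GT, 5.38, 6.31 and 6.39 in HFD, and 3.72, 3.46 and 3.55 in ND. The 3 diets did not overlap for Mvk, which was higher in GT than in ND by 1.14 ± 0.13 (adjusted p = 0.00408) and than in HFD by 0.52 (adjusted p = 0.0474). Idi1, Nsdhl and farnesyl diphosphate synthase (Fdps) rose by 1.34, 1.37 and 1.61. Of 16 genes of SREBP2 regulation and sterol uptake, 2 rose and 0 fell, against 1.27% and 1.33% of all genes tested. Insig1, which holds SREBP in the ER, had 83.9, 56.1 and 98.3 FPKM in GT, against 17.1, 26.8 and 31.6 in ND, libraries that did not overlap. HFD against ND gave 13 higher and 0 lower of the 19, with a median of 0.89, and GT against HFD gave 1 higher and 0 lower. Msmo1, Mvk, Idi1, Nsdhl and Insig1 were stable. The count of 10 was 4 without GT 1 or without ND 1, 5 without ND 3, 6 without ND 2 and 11 without GT 3.

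Fatty acid synthesis genes moved both ways. Of 17 tested, 3 rose and 4 fell, against 1.27% and 1.33% of all genes tested, with a median of -0.03. Srebf1, which encodes the SREBP1 factor of lipogenesis, stood at 65.4, 49.2 and 63.3 FPKM in GT, against 18.8, 23.2 and 22.7 in ND. No GT library overlapped ND, and the log2 difference was 1.41 ± 0.22 (adjusted p = 0.0109). Thrsp, a lipogenic protein induced by carbohydrate and thyroid hormone, had 152, 62.05 and 75.1 FPKM in GT, against 9.32, 19.3 and 8.59 in ND (2.84 ± 0.37, adjusted p = 0.00505). Fatty acid synthase (Fasn) averaged 50.4 ± 14.7 FPKM in GT and 19.0 ± 3.06 in ND (SD, n = 3 each), a log2 difference of 1.33 ± 0.28 (adjusted p = 0.0328). The elongases Elovl3 and Elovl5 and the acetyl-CoA carboxylase Acacb, whose product restrains fat burning, fell by 1.86, 1.34 and 0.95. The desaturase Scd1 varied widely among GT libraries, at 1806, 658 and 301 FPKM against 924, 2015 and 1745 in ND, and did not pass (adjusted p = 0.364). Thrsp was stable, the call of Srebf1 and of Acacb ended without ND 1 (adjusted p = 0.0625 and 0.0776), and that of Fasn ended in 6 of the 9 fits. The 7 calls of the list were 1 without ND 1, 3 without ND 3, and 4 without GT 1, GT 3 or ND 2.

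**Figure D3:**
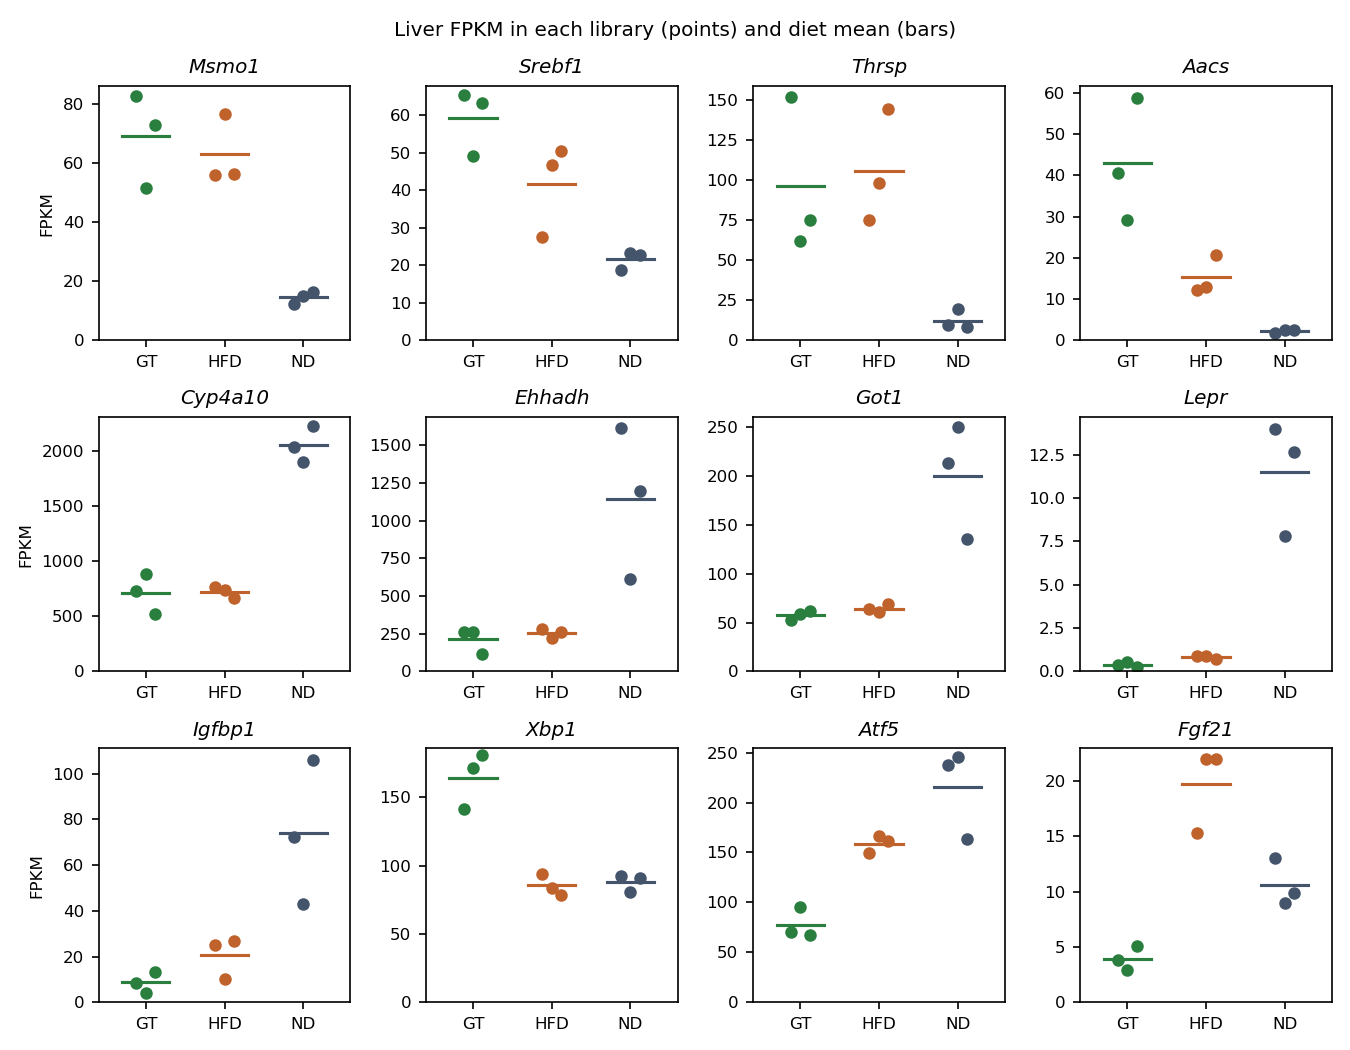
FPKM in each of the 9 liver libraries (points; 3 to a diet) with the diet mean (bars), on linear axes from 0, for 12 genes. For Msmo1, Srebf1, Thrsp and Aacs every GT library lay above every ND library, and for Cyp4a10, Ehhadh, Got1, Lepr and Igfbp1 below. Xbp1, Atf5 and Fgf21 had GT libraries apart from both other diets.

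The largest rises included further genes of fat handling. Acetoacetyl-CoA synthetase (Aacs), which feeds ketone carbon into lipid synthesis, stood at 40.7, 29.1 and 58.8 FPKM in GT, 12.3, 12.99 and 20.7 in HFD, and 1.74, 2.48 and 2.41 in ND. The diets did not overlap, GT exceeded ND by 3.72 ± 0.26 (adjusted p = 9.53e-05) and HFD by 1.41 (adjusted p = 0.0168), and the gene was stable. Cidea, which enlarges lipid droplets, had 18.02, 7.77 and 2.58 FPKM in GT and 0.260, 0.113 and 0 in ND (2.91 ± 0.51, adjusted p = 0.0199). Its call ended without GT 2 or any single ND library. Of 26 genes of triglyceride synthesis and droplets, 4 rose and 2 fell, against 1.27% and 1.33% of all genes tested. The risers were Cidea, Fitm1 (1.49), Plin4 (1.70) and the adipogenic receptor Pparg (0.92), and the fallers Gpat4 (-1.33) and the oxidative-tissue droplet protein Plin5 (-0.97). These 6 calls were 0 without ND 1 or ND 3, 1 without ND 2, 2 without GT 1, GT 2, HFD 2 or HFD 3, and 3 without HFD 1. Plin2, the common droplet coat protein, and the fatty acid transporter Cd36 were not called between GT and ND.

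Targets of PPAR-alpha in fat oxidation were lower in GT where called. Of 39 tested, 0 rose and 7 fell, 34 had a negative difference (6134 of 10670 over all genes), and the median was -0.43. Cyp4a10, a fatty acid omega-hydroxylase, stood at 729, 885 and 520 FPKM in GT, against 2034, 1904 and 2224 in ND. The groups did not overlap, with a log2 difference of -1.56 ± 0.20 (adjusted p = 0.00439). The peroxisomal enzyme Ehhadh had 259, 264 and 113 FPKM in GT and 1612, 612 and 1197 in ND (-2.41 ± 0.38, adjusted p = 0.0103). Cyp4a14 and Cyp4a31 fell by 2.09 and 2.33, the acyl-CoA thioesterase Acot1 by 1.97 and carnitine acetyltransferase (Crat) by 1.25. Cyp4a10, Cyp4a14 and Cyp4a31 are close copies, as are Acot1 and its neighbours, so reads shared between them may blur their values. Retsat, a retinol saturase, and the monocarboxylate transporter Slc16a1 fell by 1.27 and 1.82. The rate-limiting carnitine palmitoyltransferase Cpt1a had 171, 162 and 83.7 FPKM in GT, against 262, 254 and 265 in ND, groups that did not overlap (-0.97 ± 0.24, adjusted p = 0.0643). Ppara itself had a difference of -0.05 and did not pass. HFD against ND gave 2 higher and 8 lower with a median of -0.41, and GT against HFD 0 higher and 1 lower with a median of -0.13. Cyp4a10 and Cyp4a31 were stable, and the call of Ehhadh ended without ND 1 (adjusted p = 0.0541). The 7 falls were 2 without ND 1 and 3 without ND 3, and 8 with 1 rise without GT 3.

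The glucose release genes G6pc and Pck1 and the glycogen gene Ppp1r3g were called lower in GT. Of 24 genes of glucose production, glycogen and glycolysis tested, 1 rose and 3 fell, with a median of -0.15. The shares over all genes tested were 1.27% higher and 1.33% lower. Glucose-6-phosphatase (G6pc), the last step of glucose release, had 69.1, 35.8 and 69.7 FPKM in GT and 169, 124 and 224 in ND (-1.57 ± 0.30, adjusted p = 0.0250). Phosphoenolpyruvate carboxykinase (Pck1) fell by 1.41 ± 0.30 (adjusted p = 0.0386), and Ppp1r3g, a glycogen-targeting phosphatase subunit, by 1.04 ± 0.15 (adjusted p = 0.00737). Ppp1r3g was stable. The call of G6pc ended without GT 2, ND 1 or ND 3, and that of Pck1 in 7 of the 9 fits. The 4 calls of the list were 2 without GT 2, ND 1 or ND 3.

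The leptin receptor and an insulin-repressed binding protein showed the deepest falls among named genes. Lepr stood at 0.352, 0.555 and 0.229 FPKM in GT, 0.862, 0.886 and 0.689 in HFD, and 14.0, 7.81 and 12.7 in ND. The log2 difference between GT and ND was -3.15 ± 0.20 (adjusted p = 5.92e-05), which the added 1 FPKM understates at these low levels. Igfbp1, which binds insulin-like growth factor and falls with insulin, had 8.61, 4.11 and 13.4 FPKM in GT and 72.4, 43.2 and 106 in ND (-2.98 ± 0.45, adjusted p = 0.00950). Both were stable, and they were the only 2 called of 20 genes of insulin and IGF signalling. Igf1 did not pass.

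Most called enzymes of amino acid breakdown were lower in GT. Of 40 tested, 1 rose and 8 fell, against 1.27% and 1.33% of all genes tested, with a median of -0.28. The aspartate transaminase Got1 stood at 52.1, 58.7 and 61.3 FPKM in GT, 63.3, 60.5 and 69.0 in HFD, and 213, 250 and 135 in ND. GT lay below ND by 1.74 ± 0.21 (adjusted p = 0.00408). Tyrosine aminotransferase (Tat) had 219, 186 and 238 FPKM in GT and 400, 517 and 591 in ND (-1.22 ± 0.21, adjusted p = 0.0159). Serine dehydratase (Sds), alanine-glyoxylate transaminase (Agxt) and Acmsd of tryptophan breakdown fell by 0.97, 0.82 and 0.92, while proline dehydrogenase (Prodh) rose by 1.25. Sds was also lower in GT than in HFD (-0.79, adjusted p = 0.0440). Got1 was stable, and the call of Tat ended without GT 1 or ND 3. The 8 falls were 1 without GT 1, 2 without ND 1 or ND 3, 3 without HFD 2, 4 without GT 2 or HFD 1, and 5 without HFD 3.

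**Figure D4:**
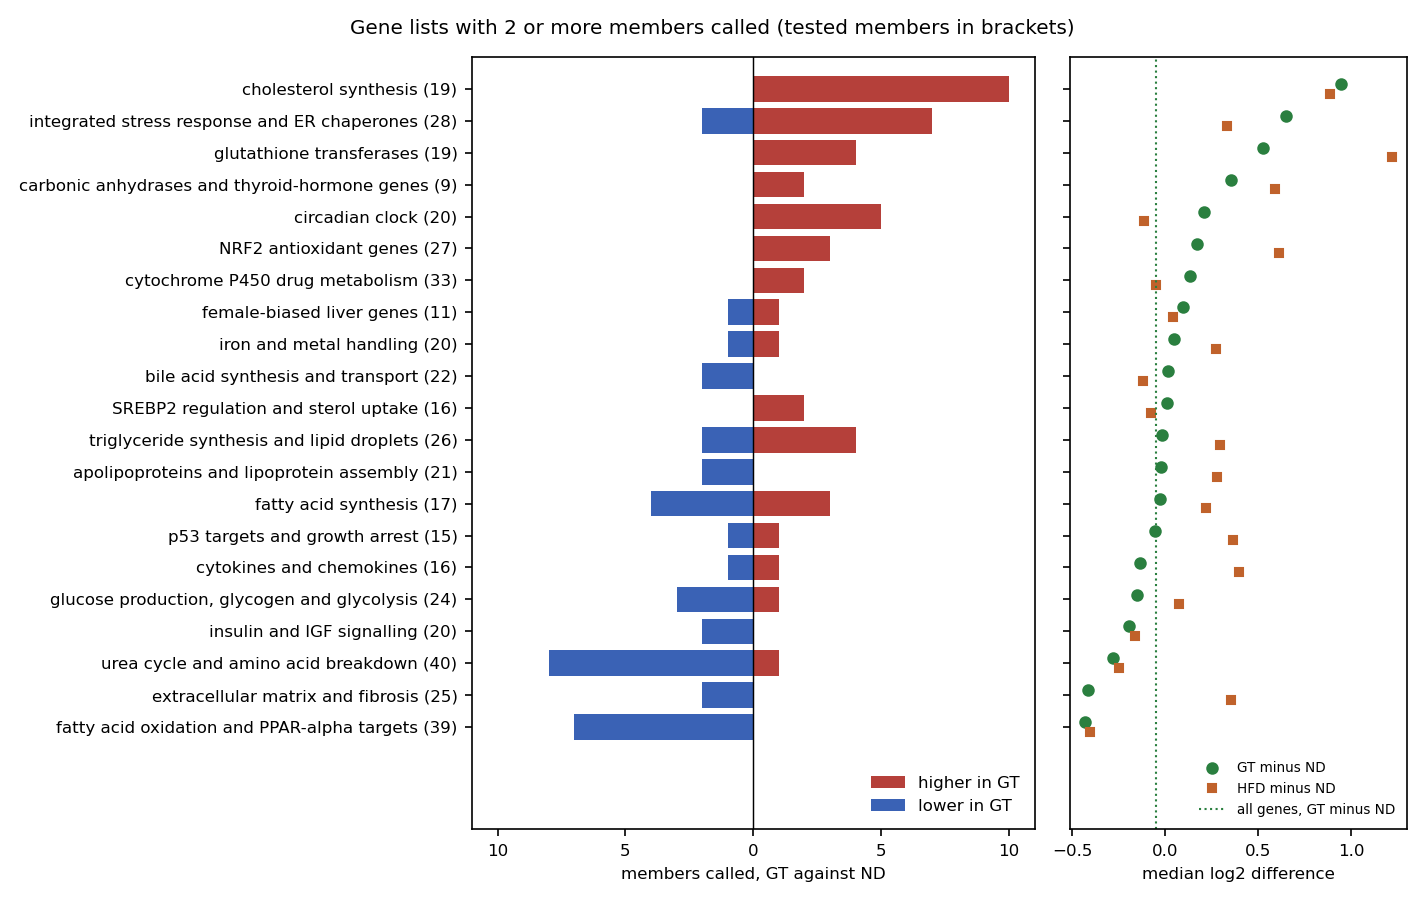
Left, members of each list called higher or lower in GT than in ND livers, for the 21 lists with at least 2 called (tested members in brackets). Right, the median log2 difference of tested members for GT (circles) and HFD (squares) against ND, with the median of all genes at -0.05 dotted. Cholesterol synthesis stands at the top with 10 higher and 0 lower, and fatty acid oxidation at the bottom with 0 higher and 7 lower.

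Some ER chaperones and their regulator Xbp1 were called higher in GT, while Atf5 and Fgf21 of the same list were called lower. Of 28 genes of the integrated stress response and ER chaperones, 7 rose and 2 fell, against 1.27% and 1.33% of all genes tested. GT lay wholly above ND in 15, against 8.43% of all genes tested, and the list median was 0.65. Xbp1, a transcription factor of the unfolded protein response, stood at 141, 171 and 181 FPKM in GT, 94.2, 83.9 and 78.6 in HFD, and 92.4, 80.7 and 90.9 in ND. GT overlapped neither diet and exceeded ND by 0.89 ± 0.16 (adjusted p = 0.0161) and HFD by 0.93 (adjusted p = 0.0133). Manf, a secreted ER stress protein, had 85.5, 83.8 and 174 FPKM in GT and 36.2, 28.8 and 35.0 in ND (1.67 ± 0.28, adjusted p = 0.0126). Calreticulin (Calr), a chaperone with the promoter element printed above, had 344, 335 and 531 FPKM in GT and 214, 176 and 202 in ND (1.00 ± 0.20, adjusted p = 0.0287). Sdf2l1 and Creld2 rose by 2.14 and 1.37 (adjusted p = 0.0421 and 0.0475) and the disulfide isomerase Pdia3 by 0.90. The seventh riser was Gdf15, described below. GT 3 was the highest GT library for Xbp1, Manf, Calr, Sdf2l1, Creld2 and Pdia3. It also carried muscle transcripts, and without it 5 rose and 2 fell. The 7 rises were 0 without ND 1, 1 without ND 2 or ND 3, 3 without GT 1 and 4 without HFD 2. Sdf2l1 lost its call in 7 of the 9 fits that left out 1 library. Manf lost its call without ND 1, Xbp1 without any single ND library, and Calr and Pdia3 without GT 1 or any single ND library. Atf5, a transcription factor of the mitochondrial stress response, stood at 70.4, 95.3 and 67.5 FPKM in GT, 149, 166 and 161 in HFD, and 238, 246 and 164 in ND. It fell by 1.45 ± 0.20 against ND (adjusted p = 0.00584) and by 1.04 against HFD (adjusted p = 0.0198), and its call against ND was stable.

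Of 20 clock genes, 5 rose and 0 fell in GT against ND, with a median of 0.21. Over all genes tested, 1.27% rose and 1.33% fell. Ciart, a repressor of the clock with 3 E-boxes above, stood at 15.9, 9.97 and 19.7 FPKM in GT, 4.93, 8.70 and 6.74 in HFD, and 0.445, 2.58 and 1.88 in ND (GT against ND 2.67 ± 0.34, adjusted p = 0.00439). The diets did not overlap, and Ciart did not pass between GT and HFD (adjusted p = 0.0950). The deubiquitinase Usp2 and the repressors Per3 and Bhlhe40 rose by 1.97, 1.65 and 1.63. Dbp (1.37, adjusted p = 0.0633) and Arntl (-1.06, adjusted p = 0.0708) did not pass, though their GT and ND libraries did not overlap. The hour of sampling is not given for any library, so its part in these values was not tested. Ciart and Usp2 were stable, and the 5 rises were 2 without GT 1 or without ND 1. Bhlhe40 lost its call without GT 1 or ND 1, and Per3 without GT 1, GT 3, HFD 2 or ND 1.

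Some detoxifying enzymes were called higher in GT than in ND. Of 33 cytochrome P450 genes of drug metabolism, 2 rose and 0 fell (median 0.13), against 1.27% and 1.33% of all genes tested. In that list 18 had a positive and 15 a negative difference, and the 2 rises were 0 without GT 1 or ND 3. Of 15 sulfo- and glucuronosyltransferases, 0 were called. Of 19 glutathione transferases, 4 rose and 0 fell in GT against ND (median 0.53), and 14 rose and 0 fell in HFD against ND (median 1.22). GT against HFD gave 0 higher and 5 lower. Gsta2 stood at 15.4, 10.997 and 12.0 FPKM in GT, 17.9, 24.3 and 17.0 in HFD, and 3.89, 4.70 and 4.24 in ND, and was higher in GT than in ND by 1.38 ± 0.18 (adjusted p = 0.00439). It has a near-identical neighbour, so reads may be shared. Gstt1, Gsta4 and Gstt3 rose by 0.86, 0.90 and 1.21. Of 27 NRF2 antioxidant genes, 3 rose and 0 fell in GT, and 12 rose and 1 fell in HFD. Osgin1, an oxidative-stress growth inhibitor, had 130, 99.8 and 250 FPKM in GT, 64.7, 67.4 and 59.1 in HFD, and 51.5, 24.4 and 34.4 in ND (GT against ND 2.04 ± 0.33, adjusted p = 0.0114). GT lay wholly above both diets for Osgin1, but GT against HFD did not pass (adjusted p = 0.0579). The cytochrome Cyp2a5 had 852, 669 and 628 FPKM in GT, 591, 621 and 377 in HFD, and 32.0, 224 and 76.6 in ND (GT against ND 3.10 ± 0.54, adjusted p = 0.0179), with close copies in its cluster. Alas1, the rate-limiting enzyme of haem synthesis, rose by 1.37 ± 0.32 (adjusted p = 0.0495). Gsta2 and Osgin1 were stable, the call of Cyp2a5 ended without ND 3 or any single GT library, and that of Alas1 in 7 of the 9 fits. The 4 transferase rises were 1 without GT 1, ND 1 or ND 3, and 2 without GT 2, HFD 2 or HFD 3. The 3 NRF2 rises were 1 without GT 1, HFD 1 or any single ND library, and 5 with 1 fall without GT 3. In HFD against ND, the 14 transferase rises were 9 without HFD 2, and the 12 NRF2 rises were 6 without ND 1, 7 without HFD 2, 8 without ND 3 and 19 without GT 3.

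Further genes among the largest differences belong to other groups. Tsku, a secreted liver protein, had 71.0, 38.2 and 61.7 FPKM in GT, 71.7, 56.5 and 79.1 in HFD, and 5.71, 14.3 and 12.99 in ND. GT exceeded ND by 2.32 ± 0.32 (adjusted p = 0.00600). Carbonic anhydrase 3 (Car3), among the most abundant risers, had 3069, 2462 and 2572 FPKM in GT, against 669, 1620 and 1040 in ND (1.37 ± 0.28, adjusted p = 0.0290). Among falls, the trefoil peptide Tff3 had 3.03, 0.951 and 2.24 FPKM in GT, against 12.5, 16.6 and 15.2 in ND (-2.41 ± 0.35, adjusted p = 0.00801). The laminin subunit Lamb3 and the fatty acid binding protein Fabp5 fell by 1.87 and 1.72. Hspa1b, an inducible heat shock protein with a near-identical copy, fell by 2.03, the mitochondrial protease subunit Clpx by 1.60 and Ndrg1 by 1.51. Tsku, Tff3, Lamb3 and Fabp5 were stable, while the call of Car3 ended in 6 of the 9 fits, of Hspa1b in 4, of Clpx in 3 and of Ndrg1 in 8.

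Some genes stood apart from ND with the extract while HFD did not, or stood farther than HFD. By rule, up to 6 genes each way that were called in the same direction against ND and against HFD are given. Nrep had 16.3, 25.8 and 36.4 FPKM in GT, 9.21, 9.34 and 5.82 in HFD, and 5.55, 5.74 and 4.37 in ND (GT against ND 2.06 ± 0.27, adjusted p = 0.00439; GT against HFD 1.53, adjusted p = 0.0145). The interferon-inducible GTPase Gbp11 had 12.9, 25.5 and 51.0 FPKM in GT, 5.79, 5.52 and 5.66 in HFD, and 5.80, 6.01 and 5.10 in ND. HFD libraries lay within the ND range for Gbp11, GT libraries lay apart above both and were widely spread, and its call against ND (2.01 ± 0.35) ended without ND 1 or ND 3. The lectin-like Clec2h and the growth factor signalling inhibitor Spry4 were higher in GT than in ND by 1.799 and 1.05 and than in HFD by 1.31 and 0.90. Lower in GT than in both was Spon2, a secreted matrix protein, at 2.53, 2.18 and 1.85 FPKM in GT, 8.33, 9.79 and 11.4 in HFD, and 15.1, 7.37 and 10.1 in ND. It differed by -1.85 ± 0.22 from ND (adjusted p = 0.00408) and by -1.76 from HFD (adjusted p = 0.00527). The stress-induced Gadd45b and the actin-severing gelsolin (Gsn) were lower by 1.18 and 1.09 than ND and by 1.33 and 1.60 than HFD. Elovl5, which lengthens polyunsaturated fatty acids, had 254, 206 and 126 FPKM in GT, 408, 370 and 542 in HFD, and 522, 436 and 473 in ND. Arsg, a lysosomal sulfatase, fell by 1.44 against ND and by 1.12 against HFD. Nrep, Clec2h, Spry4, Spon2 and Gadd45b were stable against ND. The calls of Elovl5 ended without ND 1 or ND 3, of Arsg without ND 1 and of Gsn without GT 1, ND 2 or ND 3.

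**Figure D5:**
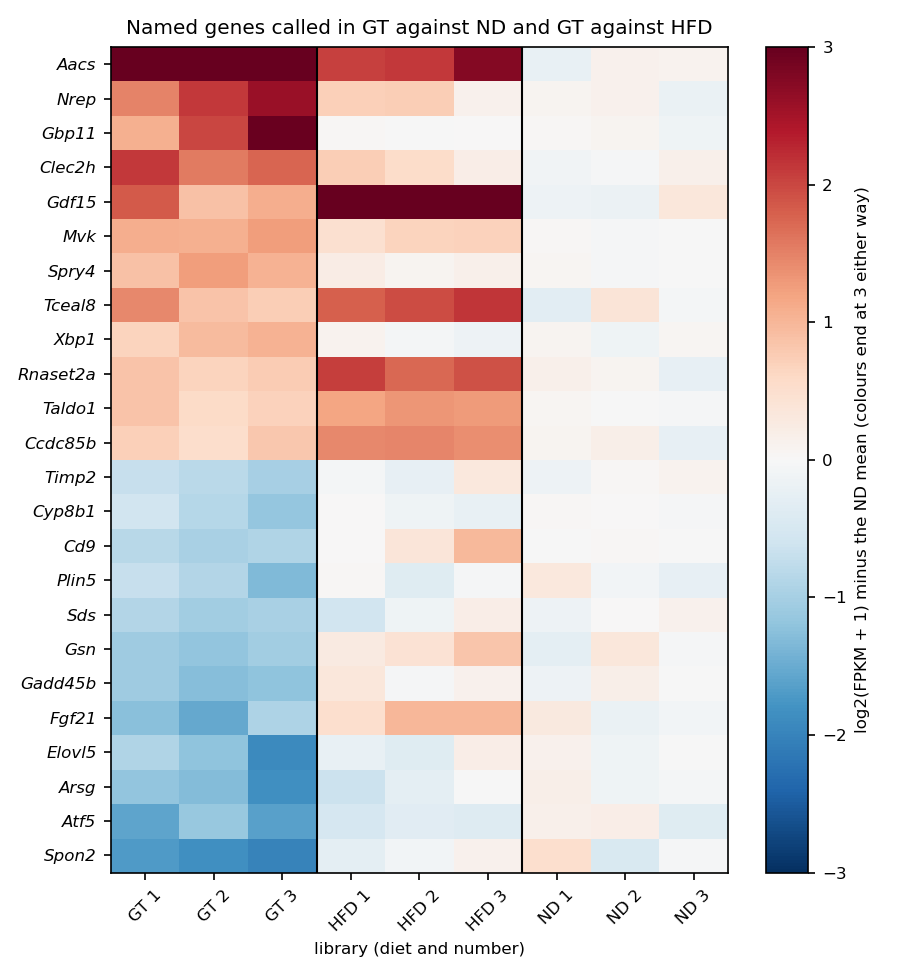
Level of each of 24 named genes called in GT against ND and in GT against HFD, as log2(FPKM + 1) minus the ND mean, in the 9 libraries; red is above and blue below the ND mean, and colours end at 3. GT libraries of Fgf21, Gsn and Gadd45b are blue where those of HFD are red or pale, while Gdf15 and Tceal8 are paler red in GT than in HFD.

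The secreted stress hormones Fgf21 and Gdf15 took different positions. Fgf21, a fasting and stress hormone of the liver, stood at 3.82, 2.97 and 5.06 FPKM in GT, 15.2, 22.0 and 21.9 in HFD, and 13.03, 8.98 and 9.83 in ND. GT lay below ND by 1.24 ± 0.21 (adjusted p = 0.0139) and below HFD by 2.07 (adjusted p = 0.00244), and HFD lay above ND by 0.83 (adjusted p = 0.0218). Klb, the co-receptor of FGF21, fell by 0.97 against ND (adjusted p = 0.0328). Gdf15, an appetite-lowering hormone, stood at 7.31, 3.31 and 3.96 FPKM in GT, 37.9, 26.0 and 25.8 in HFD, and 1.09, 1.05 and 1.92 in ND. GT lay between the other diets without overlap, above ND by 1.27 ± 0.26 (adjusted p = 0.0287) and below HFD by 2.44 (adjusted p = 0.00272). The rule named 4 further genes in that position, Tceal8, Rnaset2a, Taldo1 and Ccdc85b, at 1.02, 0.76, 0.70 and 0.68 above ND. Taldo1, a transaldolase of the pentose phosphate pathway, had 99.8, 81.5 and 89.2 FPKM in GT, 126, 138 and 135 in HFD, and 57.2, 53.9 and 53.3 in ND. Each call against ND in this group of hormones and Tceal8, Rnaset2a, Taldo1 and Ccdc85b ended without at least ND 1 and ND 3.

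Among secreted proteins, complement factor D (Cfd) showed the largest difference of all genes. It stood at 191, 131 and 202 FPKM in GT, 193, 162 and 54.7 in HFD, and 1.78, 3.11 and 0.720 in ND. GT exceeded ND by 6.00 ± 0.44 (adjusted p = 0.000107), and the gene was stable. Cfd is also a fat-cell product. The fat-cell genes Adipoq and Lep were at 0 in GT 1, GT 2 and all 3 ND libraries, Adipoq was at 0.0529 FPKM and Lep at 0 in GT 3, and Plin1 was at 0 in all GT libraries. All 10 adipocyte markers summed to between 98.3 and 174 FPKM in GT and 118 and 151 in ND libraries, sums carried mostly by Cidec and Pnpla2, which were at 81.2 and 60.5 FPKM in GT 1. Of 5 adipocyte markers tested, 0 were called between GT and ND, with GT wholly above ND for Lipe and wholly below for Pnpla2. In HFD 1, Adipoq, Lep and Plin1 were at 1.40, 0.723 and 0.399 FPKM. The part of fat cells in the Cfd values was not tested. Cfd was the only called one of 22 listed complement genes, while C4a, a close copy of C4b outside the list, rose by 2.01 ± 0.39 (adjusted p = 0.0241) and lost its call without any single ND library. Of 27 genes on the acute-phase list, Saa4 (1.53 ± 0.18, adjusted p = 0.00408) was the only called one, and its relatives Saa2 and Saa3 were not called. The chemokine Cxcl1 had 6.73, 9.98 and 7.58 FPKM in GT and 0.829, 1.76 and 3.18 in ND (1.70 ± 0.26, adjusted p = 0.00974). Ccl2, which draws monocytes, had 0.950, 0.549 and 0.154 FPKM in GT, 2.48, 3.42 and 2.09 in HFD, and 0.241, 0.733 and 0.802 in ND. GT and ND overlapped for Ccl2 (-0.05, adjusted p = 0.934), and GT was lower than HFD by 1.26 (adjusted p = 0.0150). The bile acid 12-alpha-hydroxylase Cyp8b1 fell by 0.87 ± 0.17 against ND (adjusted p = 0.0256) and by 0.76 against HFD (adjusted p = 0.0347), while Cyp7a1 did not pass (-0.89, adjusted p = 0.152). Apom, an apolipoprotein of HDL, and the lipase inhibitor Angptl4 fell by 1.42 and 0.96. Saa4 and Cxcl1 were stable, while the call of Apom ended without ND 1, of Cyp8b1 without GT 2 or any single ND library, and of Angptl4 in 8 of the 9 fits.

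Several lists with many HFD calls had few or none in GT against ND. Over all genes tested, 11.9% were called higher and 6.67% lower in HFD against ND. In GT against HFD the shares were 1.14% and 4.22%. Of 49 genes of the respiratory chain and ATP synthase, 0 were called in GT, 28 rose and 0 fell in HFD against ND, and 10 were lower and 0 higher in GT than in HFD. At equal FPKM totals the HFD rises were 19 and the GT against HFD falls 3. Of 24 male-biased liver genes, 1 fell in GT (Elovl3) and 14 fell in HFD, with medians of -0.24 and -1.43, and 6 were higher and 0 lower in GT than in HFD. The steroid enzyme Hsd3b5 had 16.9, 95.1 and 87.9 FPKM in GT, 2.58, 0.185 and 0.124 in HFD, and 54.5, 49.1 and 80.0 in ND. GT and ND overlapped for Hsd3b5, with a 95% interval of the log2 difference from -1.70 to 1.33. The call of Elovl3 ended without GT 1, GT 3 or any single ND library. Of 25 matrix genes, 0 rose and 2 fell in GT, 8 rose and 2 fell in HFD against ND, and 13 were lower in GT than in HFD. The 2 matrix falls were 1 without GT 1, GT 2 or any single ND library. Stellate cell marker sums were 64.6 to 85.9 FPKM in GT, 100.9 to 133.7 in HFD and 84.7 to 113.0 in ND. They were carried mostly by Ecm1, at 44.1 to 70.9 FPKM in GT, 72.2 to 100.9 in HFD and 61.9 to 83.5 in ND. Lrat and Gfap were at 0 in all 9 libraries. The part of stellate cells in the matrix values was not tested. Galectin, annexin and S100 genes had 1 of 23 called in GT (Lgals1, 2.13 ± 0.39) and 13 in HFD against ND, and the call of Lgals1 ended without GT 1, GT 3, ND 1 or ND 3. Major urinary protein genes had few calls in either diet against ND, with 0 of 19 in GT and 2 lower in HFD. Several of them were listed at 0 in GT 2 or GT 3. The HFD against ND counts in these lists changed with the library left out. Respiratory chain rises were 6 without HFD 2, 8 without ND 1 or ND 3 and 36 without GT 3. Falls of male-biased genes were 7 without HFD 2 and 9 without ND 1 or ND 3, and matrix rises were 2 without ND 1, 3 without ND 3, 4 without HFD 2 or HFD 3 and 12 without HFD 1. The 13 galectin, annexin and S100 rises were 8 without HFD 2, ND 1 or ND 3. In GT against HFD, male-biased genes had 1 call without HFD 2 or HFD 3, 2 without GT 2 and 10 without HFD 1. Matrix genes had 2 without HFD 2 or HFD 3 and 3 without GT 2, and the respiratory chain had 0 without GT 1, HFD 2 or HFD 3, 1 without GT 2, 3 without HFD 1, 4 without ND 3, 5 without ND 1 and 21 without GT 3. Of the 35 pathway lists, 14 had 0 or 1 member called in GT against ND, and 6 of these had 0.

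Markers of endothelial cells and macrophages had mostly negative differences in GT. In bulk liver, fewer cells of a type and less RNA per cell cannot be told apart. Of 9 tested sinusoidal endothelial markers, 1 was called lower and 8 had negative differences, as did 6134 of 10670 genes tested. The 10 listed ones summed to between 62.04 and 76.6 FPKM in GT, 72.0 and 91.2 in HFD, and 82.4 and 101 in ND, with Clec4g at 0 in all 9 libraries. The called one was the VEGF receptor Kdr, at 4.05, 4.51 and 2.68 FPKM in GT and 6.67, 7.25 and 7.54 in ND (-0.80 ± 0.18, adjusted p = 0.0422). The matrix genes Mmp14 and Timp2, which fell by 1.03 and 0.83, moved in the same direction, and the part of cell content in them was not tested. Kdr lost its call in 7 of the 9 fits and Timp2 in 5, while Mmp14 was stable. Kupffer cell and macrophage markers had 1 of 15 called, Cd9 (-0.90), all 15 had negative differences, and their sums were 97.2 to 159 FPKM in GT and 148 to 197 in ND. Cholangiocyte marker sums were 25.0 to 35.1 FPKM in GT, 60.1 to 122 in HFD and 40.4 to 52.5 in ND. They were carried mostly by Spp1, at 16.2 to 27.9 FPKM in GT, 48.9 to 109 in HFD and 30.1 to 41.8 in ND. Krt7, Krt19 and Epcam were at or under 1.07 FPKM in every liver library. T and NK cell marker sums were 2.11 to 2.90 FPKM in GT and 3.88 to 5.74 in ND, and neutrophil marker sums 2.43 to 6.36 in GT and 2.13 to 2.32 in ND, ranges that do not overlap and rest on low levels. The largest part of the neutrophil sums was S100a8, at 1.09 to 3.65 FPKM in GT and 0.800 to 0.984 in ND. S100a9, Elane and Csf3r overlapped between GT and ND, and Ly6g and Mpo were at 0 in all 9 libraries. Muscle markers had 0 of 9 called.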

How the data were processed

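PolyA RNA from liver and a second tissue was sequenced in 18 libraries, of which the 9 liver libraries are used. The deposited table holds FPKM per gene made by the authors. Per the submitters' processing notes, the tools were CASAVA 1.8.2, STAR 2.4.0 and Cufflinks 2.1.1. The build of the genome was not given in the sources used here. FPKM carries no read depth, so no counting interval can be given, and the number of libraries limits the precision. Of 23474 gene IDs, 22671 matched a symbol and 803 did not. The number of columns belonging to no sample was 0.

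Genes with at least 1 FPKM in at least 3 of the 9 liver libraries (10670) were tested on log2(FPKM + 1) with limma 3.58.1 in R 4.3.3, fitting 1 mean for each diet, with variances moderated by eBayes (trend = TRUE, robust = TRUE). Adding 1 understates changes of low genes. P-values were adjusted over all 10670 genes by the Benjamini-Hochberg method at 0.05. The fit was also run on values simulated from its own fitted spread, which cannot test its assumptions about these libraries. Summaries and plots used Python 3.11.15, numpy 2.4.6, pandas 2.3.3 and matplotlib 3.10.9. Promoters are RefSeq's on GRCm38.p6.

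Named genes are up to 20 each way by log2 difference, 8 each way by FPKM difference, 6 each way called against both ND and HFD in the same or in opposite directions, 6 of each list by unadjusted p, and 32 chosen genes. Entries with no symbol, clone names and mitochondrially encoded genes were passed over, and some named genes are not reported here. The genes, lists and tests were chosen with earlier results of these data known. Alternatives changed the added value, the filter, the scaling, the variance prior, the libraries in the fit, the treatment of listed zeros and the replicate block, and left out each library in turn.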

Additional observations from a re-analysis of the deposited data

How the results depend on the processing

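The number of genes called between GT and ND livers, 277, was 81 with all 18 libraries in 1 fit, 99 with GT and ND libraries alone, 141 at equal FPKM totals, 143 with no filter on low FPKM and 436 without HFD 2 and GT 3 together. Leaving out 1 library gave 53 (without ND 1) to 416 (without GT 3). It lay between 236 and 294 with 0.1 added, a filter at 5 FPKM, a plain variance prior, quantile scaling or listed zeros as missing. HFD against ND, 1980, was 305 with all 18 libraries and 474 (without HFD 2) to 3363 (without GT 3) leaving out 1 library. GT against HFD, 572, was 76 with all 18 libraries, 208 at equal totals, 262 with no filter, 244 without HFD 2 and GT 3 together and 45 (without HFD 2) to 1223 (without GT 3) leaving out 1 library. Of 759 genes in the lists, 92 were called between GT and ND, 42 with all 18 libraries, 46 with no filter, 45 with GT and ND libraries alone and 26 (without ND 1) to 107 (without GT 3) leaving out 1 library. The cause of these shifts was not tested, except that fits on fewer libraries have fewer degrees of freedom. Of the 106 named calls, 56 were lost with all 18 libraries, 50 with GT and ND libraries alone, 48 with no filter and 30 at equal totals, and none of the 106 changed sign in any setting.

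The labels number the libraries 1 to 3 in each diet. Same-numbered libraries of different diets had correlations of their deviations between -0.30 and 0.42 (n = 9 pairs, median 0.10). Other pairs had -0.40 to 0.40 (n = 18, median -0.08). The labels do not say whether same-numbered libraries share anything else, and ranges of so few pairs cannot decide it. With the replicate block, 141 genes were called between GT and ND, 306 between GT and HFD and 1659 between HFD and ND, and 60 genes of the lists.

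With 3 libraries per diet and no read depth, differences smaller than the spread between libraries were not detectable. The unadjusted p was under 0.05 in 1765 genes between GT and ND.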
